A study of Homo sapiens with 12 samples.

Results

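Nascent transcription of the trefoil factor locus on chromosome band 21q22.3 was described for 7 genes: the trefoil peptide genes TFF1, TFF2 and TFF3, and their neighbours TMPRSS3, RSPH1, ABCG1 and UBASH3A. They were taken from the table of gene counts by the symbols of their Ensembl gene IDs, 7 of the 59410 genes kept from it, and all 7 were found. A filter on low counts left 23375 genes for testing. Of the 7, 4 passed that filter (TFF3, TMPRSS3, RSPH1 and ABCG1), while TFF1, TFF2 and UBASH3A did not and are given as pooled counts.

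The assay was PRO-seq, in which nuclei extend the RNA that engaged polymerases are making, so that the sequenced ends report ongoing transcription and not stored mRNA. It was run on T47D, an established line of luminal breast cancer cells that carry the estrogen receptor, in 12 libraries that form 6 groups of 2 (numbered 3 and 4 in each). In complete medium, after 3 days of growth, cells received for 1 h either vehicle (0.1% DMSO by volume) or 100 nM of fulvestrant, raloxifene or tamoxifen. Other cells, starved of hormones for 3 days, received vehicle (0.1% DMSO) or 1 nM estradiol for 1 h. Estradiol activates the receptor, fulvestrant is a pure antagonist that marks the receptor for degradation, and raloxifene and tamoxifen are modulators whose action varies with tissue. Every group is the same single cell line. The labels do not say whether the libraries within a group come from different cultures, and the p-values therefore reflect library-to-library spread alone, possibly technical.

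Trefoil peptides are small secreted proteins held in a clover-leaf shape by disulfide bonds, and they are released with mucins onto epithelia, where they help the surface to heal. TFF1, first described as pS2 in breast cancer cells, is a classical estrogen-induced gene whose regulatory region binds the receptor. TFF2 is known mainly from gastric glands, and TFF3 from goblet cells and from luminal breast tumours. The genes between and around them have other roles: TMPRSS3 encodes a membrane-bound serine protease required for hearing, UBASH3A a suppressor of T-cell receptor signalling, RSPH1 a radial spoke protein of motile cilia, and ABCG1 a transporter that moves cholesterol out of cells.

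On assembly GRCh38.p14, of the hg38 build that the files use, the 7 genes lie on chromosome 21 in the order ABCG1, TFF3, TFF2, TFF1, TMPRSS3, UBASH3A and RSPH1. ABCG1 (ENSG00000160179) spans 42199689 to 42297244. TFF3 (ENSG00000160180) follows at 42311667 to 42315409, TFF2 (ENSG00000160181) at 42346357 to 42350994, and TFF1 (ENSG00000160182) at 42362282 to 42366535. TMPRSS3 (ENSG00000160183), only 5.4 kb from TFF1, spans 42371890 to 42396052. UBASH3A (ENSG00000160185) spans 42403902 to 42447684, and RSPH1 (ENSG00000160188) 42472486 to 42496224. The trefoil genes are short, between 3.74 kb (TFF3) and 4.64 kb (TFF2), whereas ABCG1 spans 97.6 kb. RefSeq places other genes over parts of ABCG1, TFF1 and UBASH3A (LOC105372814 and RNA5SP492, LOC105372815, and RNU6-1149P), and since no source used here gives the strand setting of the counting, reads of such pairs cannot be told apart.

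A promoter sequence was at hand for 1 of the 7 genes, TMPRSS3, and it is shown because this gene was among the estradiol-responsive ones. It comprises the 250 bases before a RefSeq transcript start at 42389149, a start that lies 6903 bp inside the gene's span, so it is not the outermost one. Capitals mark the letters that matched any of the motifs searched, and the sequence is read 5′ to 3′ on the minus strand, at chr21:42389150-42389399 of GRCh38.p14.
TMPRSS3 promoter: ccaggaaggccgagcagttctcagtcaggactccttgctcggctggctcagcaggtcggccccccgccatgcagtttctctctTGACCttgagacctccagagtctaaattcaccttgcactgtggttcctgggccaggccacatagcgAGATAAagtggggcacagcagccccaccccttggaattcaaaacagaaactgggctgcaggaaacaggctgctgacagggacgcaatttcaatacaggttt
The motifs were searched on both strands. The palindromic estrogen response element GGTCANNNTGACC was not in this window, and it was in 0.0401% of the 34943 promoter windows of the same length. Its 5-letter part GGTCA, which the longer motif also contains, matched 1 time on the opposite strand, 167 bases before the start. That short motif was in 32.6% of all windows. The GATA motif AGATAA matched 1 time, 101 bases before the start, against 9.19% of windows. The AP-1 motif TGANTCA, the forkhead motif TGTTTAC, the SP1 motif GGGCGG and the TATA box TATAAA were not in this window, and were in 6.59%, 2.98%, 42.5% and 10.8% of all windows. A match describes letters only.

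The libraries held between 3682311 counts (raloxifene library 4) and 7856803 counts (raloxifene library 3). All 10 luminal markers passed the filter, with a summed level of 3950 to 5940 CPM (counts per 1000000 counts) per library. The basal, blood and stromal lists summed to 12.4 to 20.3, 24.6 to 35.2 and 21.7 to 30.9 CPM. Of the 6 basal markers 4 passed the filter, of the 6 stromal markers 3 and of the 8 blood markers 4. The largest basal and stromal counts over all libraries were 481 for TP63 and 1442 for COL1A1. Those of the blood markers ran from 1 for CD3D to 1603 for CD68, with 88 for CD3E, 108 for LCK and 339 for CD247. The ciliated cell list summed to 59.6 to 70.9 CPM, and 3 of its 4 markers passed. DNAH5 had 2523 counts and DNAI1 2238, against 103 for FOXJ1 and 53 for TPPP3. GREB1, a well-known estrogen target used here as a reference gene, had 311 ± 24 CPM in starved vehicle, 1450 ± 55 with estradiol, 1310 ± 62 in complete vehicle and 589 ± 3.4 with fulvestrant (SD, n = 2). Levels are CPM scaled by TMM, edgeR's correction for library composition, and unless another test is named, adjusted p-values are from edgeR's quasi-likelihood test with Benjamini-Hochberg adjustment over the 23375 genes, with a threshold of 0.05.

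Counts were spread unevenly over the locus. The counted part of each gene is not known, so levels per kb of full gene span give only a rough order. By that measure TFF3 was the highest of the 7 in complete vehicle, at 2.35 ± 0.097 CPM per kb (SD, n = 2), followed by RSPH1 at 0.678 ± 0.097. TMPRSS3 at 0.401 ± 0.019 and ABCG1 at 0.397 ± 0.086 did not differ beyond their spread. TFF1, with 13 counts in complete vehicle, was at 0.28 ± 0.078, a spread that overlapped that of ABCG1. UBASH3A stood at 0.0148 ± 0.0055 CPM per kb, and TFF2 had no count in that group. In absolute counts the genes were sparse: over all 12 libraries TFF3 had 358 counts, TMPRSS3 557, RSPH1 1100 and ABCG1 2502, against 56 for TFF1, 34 for UBASH3A and 5 for TFF2.

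**Figure D1:**
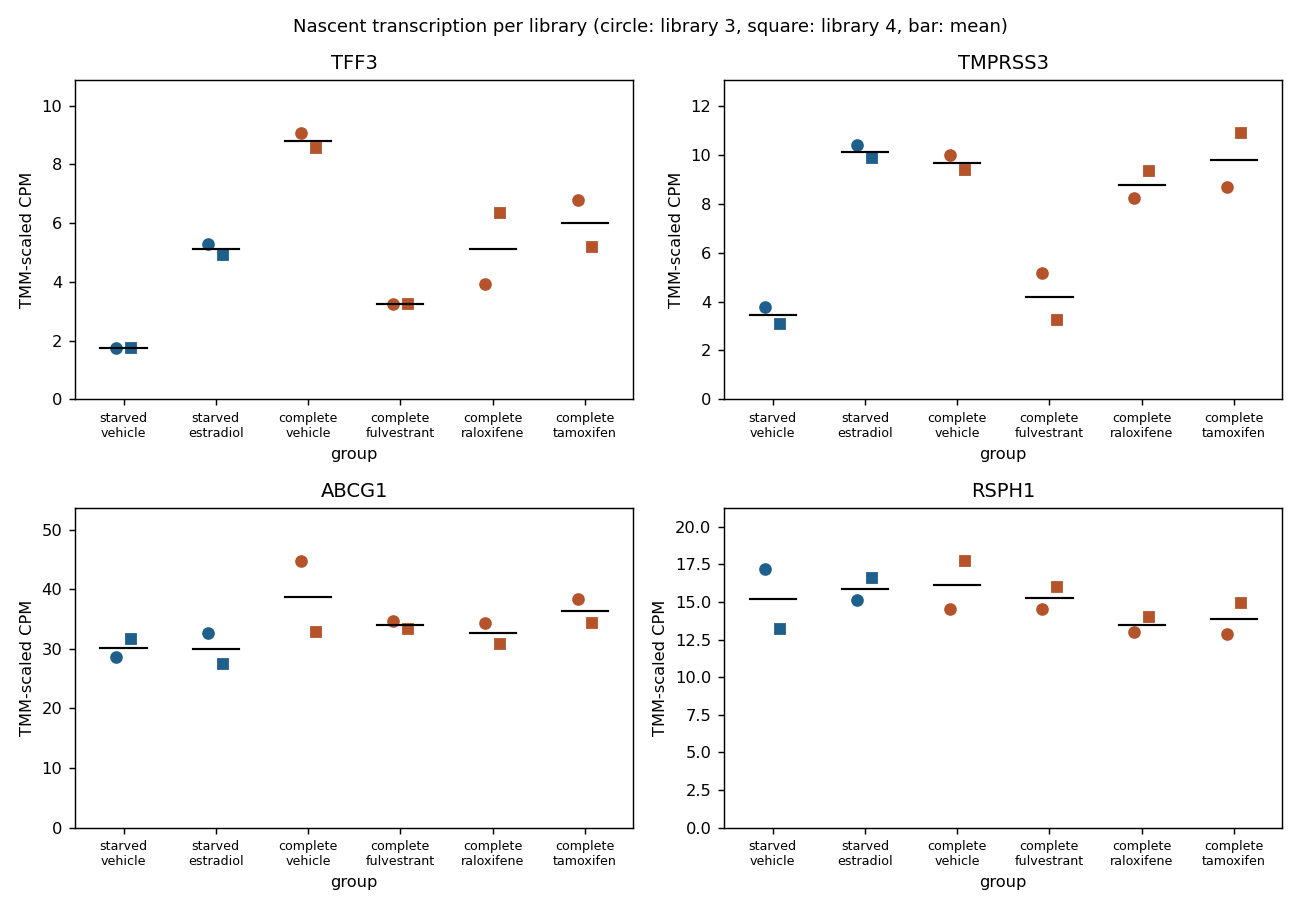
TMM-scaled CPM (vertical axis, from 0) of TFF3, TMPRSS3, ABCG1 and RSPH1 in each library by group (horizontal axis), with circles for library 3, squares for library 4 and a bar at the mean of the 2; blue is starved and orange complete medium. TFF3 and TMPRSS3 are lowest in starved vehicle (1.76 and 3.43 CPM) and next lowest with fulvestrant (3.23 and 4.2 CPM), while RSPH1 stays between 12.9 and 17.7 CPM.

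The comparison of estradiol with vehicle in starved cells asked which genes of the locus respond to the hormone within 1 h. TFF3 and TMPRSS3 both rose, to 2.89-fold and 2.94-fold, while RSPH1 and ABCG1 did not pass the test. Thus 2 of the 4 tested genes were called higher and 0 lower, where 5.04% of all tested genes were called higher and 3.74% lower. DESeq2 also called those 2 genes. Without TMM scaling the calls over all genes split into 1024 higher and 1217 lower, in place of 1177 and 874, and the 2 calls of the locus held.

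TFF3, the trefoil peptide of goblet cells, read 1.76 and 1.75 CPM in starved vehicle libraries 3 and 4 (13 and 12 counts) and 5.29 and 4.93 CPM with estradiol (34 and 27 counts). Both estradiol libraries were above both vehicle libraries. The log2 fold change was 1.53 ± 0.314 (standard error of the fit, 95% interval 0.88 to 2.19, adjusted p = 0.0023 by edgeR's quasi-likelihood test with Benjamini-Hochberg adjustment). Leaving out any 1 of the 4 libraries moved it between 1.48 and 1.58, with adjusted p from 0.013 to 0.031.

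TMPRSS3, the serine protease gene next to TFF1, read 3.79 and 3.07 CPM in starved vehicle (28 and 21 counts) and 10.4 and 9.86 CPM with estradiol (67 and 54 counts). The groups did not overlap. Its log2 fold change was 1.56 ± 0.239 (95% interval 1.06 to 2.05, adjusted p = 0.00011), and between 1.42 and 1.72 with any 1 library left out. For scale, GREB1 rose by 2.22 ± 0.0548 on the log2 scale and PGR, the progesterone receptor gene, by 1.4 ± 0.059 (adjusted p = 2.1e-16 and 8.7e-13).

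TFF1 had 1 and 3 counts in starved vehicle and 3 and 13 with estradiol. Estradiol library 3 equalled the higher vehicle library in counts, and library 4 held most of the group's counts. Pooled over libraries, this was 0.282 CPM, here by library totals without TMM (exact Poisson 95% interval 0.0769 to 0.723) against 1.32 (0.752 to 2.14). The ratio of estradiol to vehicle was 4.66 (exact 95% interval 1.5 to 19.2). Such intervals cover counting error only and compare these libraries, not the conditions. The ratio depended on single libraries: it was 1.61 (0.236 to 9.54) without estradiol library 4 and 8.25 (2.55 to 34.7) without estradiol library 3. It was 2.98 (0.852 to 15.9) without vehicle library 3 and 9.7 (1.51 to 407.0) without vehicle library 4. When no filter on low counts was used, edgeR's quasi-likelihood test gave TFF1 a log2 fold change of 2.21 ± 0.758, which missed the threshold (Benjamini-Hochberg adjusted p = 0.077).

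TFF2, the gastric trefoil peptide, had 5 counts in all: 1 in starved vehicle, 2 with estradiol and 2 with raloxifene. Complete vehicle, fulvestrant and tamoxifen had 0 counts, which allows up to 0.265, 0.256 and 0.223 CPM when 3 counts are taken as the limit of a count of 0. No fold is given for TFF2, since every group was at or under that limit.

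RSPH1, the cilium gene at the far end of the locus, had 17.2 and 13.2 CPM in starved vehicle and 15.1 and 16.6 CPM with estradiol. The groups overlapped. Its log2 fold change was 0.05 ± 0.158 (95% interval -0.28 to 0.38, adjusted p = 0.92). ABCG1, the cholesterol transporter at the other end, had 28.7 and 31.6 CPM in starved vehicle and 32.7 and 27.4 CPM with estradiol, again overlapping, with a log2 fold change of 0.0 ± 0.134 (95% interval -0.28 to 0.28, adjusted p = 1.0). Both intervals lie below the lower bounds of the changes of TFF3 and TMPRSS3 (0.88 and 1.06). No test of the difference between genes was made.

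UBASH3A, the T-cell signalling gene beyond TMPRSS3, had 0 and 5 counts in starved vehicle and 5 and 2 with estradiol. The ratio of the pooled counts was 1.63 (exact 95% interval 0.446 to 6.52). It had between 3 and 7 pooled counts in every group. Its ratios were computed for some pairs of groups and not for every pair. The intervals of all those computed included 1, so that no difference was detectable among them at this depth.

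**Figure D2:**
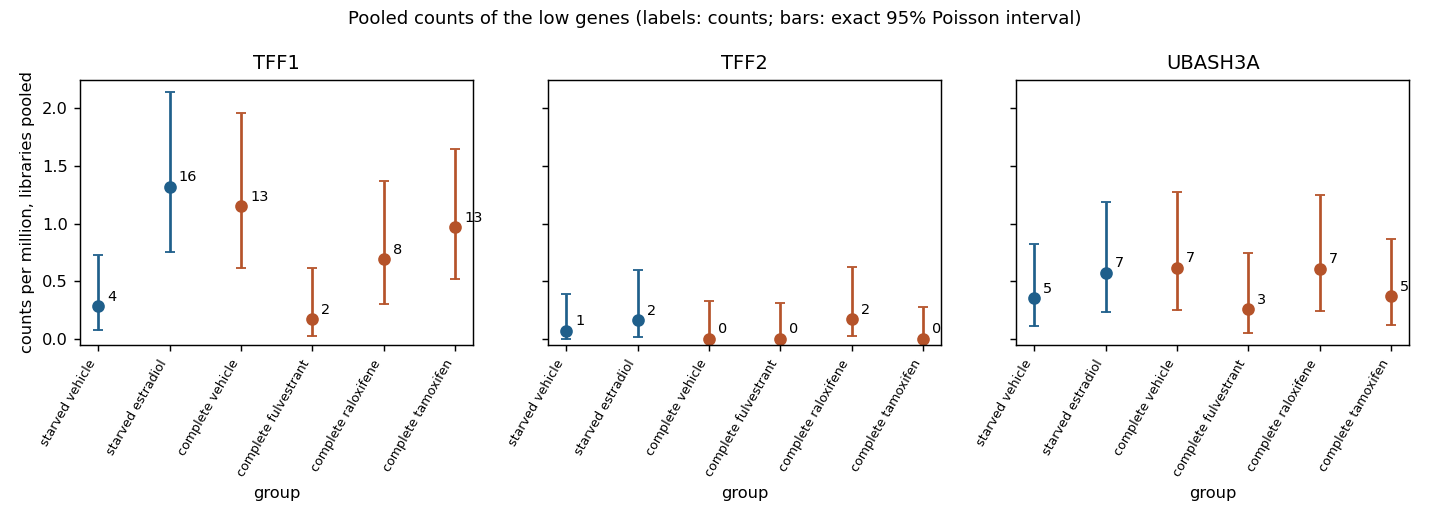
Pooled CPM (vertical axis) of TFF1, TFF2 and UBASH3A in the 6 groups (horizontal axis), each point being both libraries of a group, with its count printed beside it and a bar for the exact Poisson 95% interval; blue is starved and orange complete medium. TFF1 has 16 counts with estradiol against 4 in starved vehicle, and 2 with fulvestrant against 13 in complete vehicle.

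Starved and complete vehicle cells were compared next. These groups differ in medium, and the comparison shares its starved vehicle libraries with the estradiol comparison, so the values of both are not independent. Of the 4 tested genes, 3 were lower in starved cells (TFF3, TMPRSS3 and ABCG1) and 0 were higher, where 9.67% of all tested genes were called lower and 9.1% higher. Of the 3, TFF3 had the largest difference and stood at 0.201 of its complete vehicle level.

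TFF3 had 9.07 and 8.55 CPM in complete vehicle (57 and 42 counts) against the 1.76 and 1.75 CPM of starved vehicle. Every complete vehicle library was above every starved one. The log2 difference was -2.32 ± 0.286 (95% interval -2.91 to -1.72, adjusted p = 4.5e-06), of a size like that of GREB1 (-2.07 ± 0.0548).

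TMPRSS3 had 10.0 and 9.37 CPM in complete vehicle (63 and 46 counts) against 3.79 and 3.07 in starved vehicle, with no overlap. Its log2 difference was -1.49 ± 0.243 (95% interval -2.0 to -0.98, adjusted p = 0.00012). Both calls held with each library left out in turn, at -2.34 to -2.27 for TFF3 and -1.65 to -1.35 for TMPRSS3.

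ABCG1 had 44.7 and 32.8 CPM in complete vehicle, and starved vehicle (28.7 and 31.6 CPM) was below both. The log2 difference was small, -0.38 ± 0.129 (95% interval -0.65 to -0.11, adjusted p = 0.045). It was -0.12 without complete vehicle library 3 (adjusted p = 0.72), -0.3 when starved vehicle library 3 was left out (0.28) and -0.44 when its library 4 was (0.092), and it also missed the threshold without TMM scaling (0.066) and with DESeq2 (0.18). RSPH1 had 14.5 and 17.7 CPM in complete vehicle and overlapped with starved vehicle, with a log2 difference of -0.07 ± 0.16 (adjusted p = 0.84).

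For TFF1, complete vehicle had 6 and 7 counts, 1.15 CPM when pooled (exact Poisson 95% interval 0.611 to 1.96). The ratio of starved to complete vehicle was 0.246 (exact 95% interval 0.0584 to 0.796). Leaving out starved vehicle library 3 gave 0.385 (0.0704 to 1.4), and leaving out its library 4 gave 0.118 (0.00278 to 0.786). The interval also reached above 1 without complete vehicle library 4 (0.299, 0.062 to 1.26). Without the filter edgeR's quasi-likelihood test gave -1.95 ± 0.787 on the log2 scale (Benjamini-Hochberg adjusted p = 0.12).

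Estradiol-treated starved cells were then set against complete vehicle, to see how near each gene came to its level in complete medium after 1 h. TMPRSS3 with estradiol (10.4 and 9.86 CPM) overlapped complete vehicle (10.0 and 9.37 CPM), with a log2 difference of 0.06 ± 0.207 (95% interval -0.37 to 0.49, adjusted p = 0.89). TFF3 with estradiol (5.29 and 4.93 CPM) remained below both complete vehicle libraries (9.07 and 8.55 CPM). Its log2 difference was -0.78 ± 0.242 (95% interval -1.29 to -0.28, adjusted p = 0.03). That made 1 of 4 tested genes lower and 0 higher, against 8.11% and 8.09% of all tested genes. The TFF3 call was lost when any 1 of the libraries was left out: the adjusted p was 0.12 and 0.15 without estradiol library 3 or 4 and 0.18 and 0.093 without complete vehicle library 3 or 4. With DESeq2 the adjusted p was 0.26, and without the filter 0.057. ABCG1 with estradiol (32.7 and 27.4 CPM) lay below both complete vehicle libraries (44.7 and 32.8 CPM), by a narrow gap. Its log2 difference of -0.38 ± 0.133 (95% interval -0.66 to -0.1) missed the threshold (adjusted p = 0.059). It passed with the library number as a replicate block (adjusted p = 0.0097), with only the groups compared in the fit (0.047) and without complete vehicle library 4 (-0.56, 0.01), so that 2 of the 4 genes were lower in the first 2 of these. It was -0.11 without complete vehicle library 3 (0.76). RSPH1 overlapped between the groups, with a log2 difference of -0.01 ± 0.164 (adjusted p = 0.98). The pooled TFF1 ratio was 1.15 (exact 95% interval 0.517 to 2.59), but 0.397 (0.0726 to 1.44) without estradiol library 4 and 2.03 (0.867 to 4.75) without estradiol library 3.

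The antagonists were each compared with vehicle in complete medium, the 3 drugs at the same dose and time against the same 2 vehicle libraries. With fulvestrant TFF3 fell to 0.368 and TMPRSS3 to 0.438 of the vehicle level. Of the 4 tested genes, 2 were lower with fulvestrant and 0 higher, where 1.05% of all tested genes were lower and 0.107% higher. With raloxifene 0 of 4 passed, where 0.479% of all genes were lower and 0.0898% higher, and with tamoxifen 0 of 4, where 0.0471% were lower and 0.00428% higher. At an unadjusted p under 0.05 in edgeR's quasi-likelihood test 1 gene of the 4, TFF3, was lower with raloxifene and with tamoxifen. DESeq2 called none of the 4 with any of the 3 drugs, and gave no adjusted p for 2 of them with raloxifene and 3 with tamoxifen.

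TFF3 had 3.23 and 3.24 CPM with fulvestrant (20 and 18 counts), 3.92 and 6.33 CPM with raloxifene (31 and 23 counts), and 6.78 and 5.2 CPM with tamoxifen (50 and 31 counts). All 6 drug libraries lay below both vehicle libraries (9.07 and 8.55 CPM), and the fulvestrant libraries were the lowest. The log2 fold changes were -1.44 ± 0.265 with fulvestrant (95% interval -2.0 to -0.89, adjusted p = 0.0041), -0.89 ± 0.249 with raloxifene (-1.41 to -0.37, adjusted p = 0.16) and -0.54 ± 0.229 with tamoxifen (-1.02 to -0.07, adjusted p = 0.72). The 2 raloxifene libraries lay far apart, and the log2 fold change was -1.17 without raloxifene library 4 (adjusted p = 0.043) and -0.48 without raloxifene library 3 (adjusted p = 0.78). With the library number as a replicate block it was -0.9 (adjusted p = 0.041). The fulvestrant call was lost without complete vehicle library 3 (adjusted p = 0.078), without fulvestrant library 3 (0.068) and with DESeq2 (0.074), at values of -1.4, -1.45 and -1.45. The mean over the 3 drugs was -0.96 ± 0.196 (adjusted p = 0.015, where 0.826% of all genes were lower and 0.141% higher). It missed the threshold without complete vehicle library 3 (-0.91) or 4 (-1.0) and when only those groups were fitted (adjusted p = 0.05). DESeq2 gave no adjusted p for this mean of TFF3.

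TMPRSS3 had 5.17 and 3.24 CPM with fulvestrant (32 and 18 counts), 8.23 and 9.35 CPM with raloxifene (65 and 34 counts), and 8.67 and 10.9 CPM with tamoxifen (64 and 65 counts). Only the fulvestrant libraries were far below vehicle (10.0 and 9.37 CPM), and the tamoxifen libraries overlapped it. The log2 fold change with fulvestrant was -1.19 ± 0.243 (95% interval -1.7 to -0.68, adjusted p = 0.011). It was -0.17 ± 0.215 with raloxifene (-0.62 to 0.28, adjusted p = 0.86), and with tamoxifen the interval was -0.42 to 0.42 (adjusted p = 1.0). The fulvestrant value dropped to -0.91 without fulvestrant library 4 (adjusted p = 0.21), and the call was also lost without complete vehicle library 3 (-1.14, 0.16) or 4 (-1.24, 0.055) and with DESeq2 (-1.2, 0.095).

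TFF1 had 0 and 2 counts with fulvestrant, 5 and 3 with raloxifene, and 8 and 5 with tamoxifen, against 6 and 7 in vehicle. Both fulvestrant libraries were below every other library in complete medium. The pooled ratio to vehicle was 0.149 with fulvestrant (exact 95% interval 0.0163 to 0.657), 0.604 with raloxifene (0.217 to 1.57) and 0.842 with tamoxifen (0.36 to 1.97). Without fulvestrant library 3, which had no count, the ratio was 0.312 (0.0342 to 1.38), and without fulvestrant library 4 it was 0 counts against 13, with an upper bound of 0.606. Without complete vehicle library 4 it was 0.18 (0.0178 to 1.01). Without the filter, edgeR's quasi-likelihood test gave fulvestrant a log2 fold change of -2.64 ± 0.91 (Benjamini-Hochberg adjusted p = 0.32).

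ABCG1 had 34.7 and 33.3 CPM with fulvestrant, 34.4 and 30.8 with raloxifene and 38.4 and 34.4 with tamoxifen. Each group had at least 1 value inside the wide span of vehicle (32.8 to 44.7 CPM), and the log2 fold changes of -0.2, -0.24 and -0.1 did not pass the test (adjusted p = 0.83, 0.58 and 0.93). RSPH1 had 14.5 and 16 CPM with fulvestrant, 13.0 and 14.0 with raloxifene and 12.9 and 14.9 with tamoxifen. The raloxifene libraries lay below both vehicle libraries (14.5 and 17.7 CPM), but its 95% interval of -0.61 to 0.1 on the log2 scale included 0. RSPH1 passed the threshold in none of the comparisons with edgeR's quasi-likelihood test, and in none with DESeq2, which gave no adjusted p for it in 2 of them.

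Set against each other, the drugs gave 1 call among the 4 tested genes of the locus, at TMPRSS3. With tamoxifen it was 2.28 times its fulvestrant level, a log2 difference of 1.19 ± 0.237 (95% interval 0.69 to 1.69, adjusted p = 0.019), and the libraries did not overlap. This was 1 of 4 tested genes higher and 0 lower, against 0.453% and 0.00856% of all genes. The call was lost without fulvestrant library 4 (0.9, adjusted p = 0.42), without tamoxifen library 4 (1.02, 0.2) and when only those 2 groups were fitted (0.12). For scale, GREB1 was higher with tamoxifen than with fulvestrant by 0.9 ± 0.0527 and PGR by 0.42 ± 0.0581 on the log2 scale. Their adjusted p-values were 3.2e-09 and 0.00045 by edgeR's quasi-likelihood test. TFF3 was also apart between these drugs, at 0.9 ± 0.275 (0.33 to 1.47), without passing (adjusted p = 0.36). DESeq2 called 0 of the 4 genes in this comparison and gave no adjusted p for TMPRSS3 and TFF3. The pooled TFF1 ratio of tamoxifen to fulvestrant was 5.66 (exact 95% interval 1.28 to 51.7), 2.7 (0.611 to 24.6) without fulvestrant library 3 and 4.84 (0.792 to 50.8) without tamoxifen library 3. Without fulvestrant library 4 it was 13 counts against 0, with a lower bound of 1.39.

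Raloxifene against fulvestrant gave TMPRSS3 a log2 difference of 1.02 ± 0.249 (95% interval 0.5 to 1.54), with an adjusted p of 0.28, and TFF3 0.56 ± 0.298 (-0.06 to 1.18, adjusted p = 0.98). None of the 4 genes passed in that comparison, where 0.103% of all genes were called higher, while 1 had an unadjusted p under 0.05 in edgeR's quasi-likelihood test and DESeq2 called 0 (with no adjusted p for 3). The libraries of 3 of the 4 genes did not overlap there. A lack of overlap between 2 and 2 libraries thus carries little weight by itself. Between tamoxifen and raloxifene none passed either, with 0 at an unadjusted p under 0.05 and 0 by DESeq2, where 0.00428% of all genes were called higher. The interval for TFF3 was -0.2 to 0.88 and that for TMPRSS3 -0.27 to 0.61, so differences of either sign within those bounds were not excluded.

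**Figure D3:**
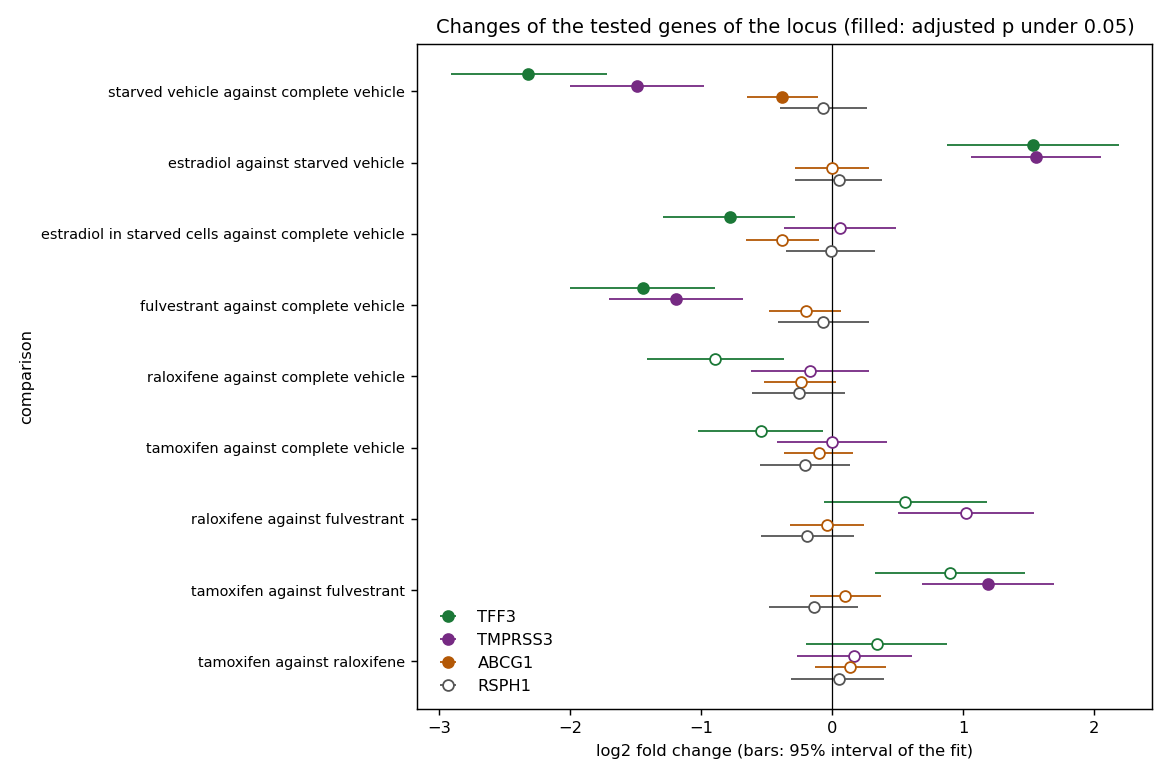
Log2 fold changes (horizontal axis) of TFF3, TMPRSS3, ABCG1 and RSPH1 in 9 comparisons (vertical axis), with bars for the 95% interval of the fit and filled points where the adjusted p was under 0.05. TFF3 and TMPRSS3 lie to the left with starvation and fulvestrant and to the right with estradiol, whereas the RSPH1 points stay near 0.

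Ordered by mean level, TFF3 was lowest in starved vehicle (1.76 ± 0.0047 CPM), then with fulvestrant (3.23 ± 0.0041). Estradiol (5.11 ± 0.25), raloxifene (5.13 ± 1.7) and tamoxifen (5.99 ± 1.1) overlapped with each other, and complete vehicle was highest (8.81 ± 0.36; SD, n = 2 each). TMPRSS3 formed a low pair, starved vehicle (3.43 ± 0.51 CPM) and fulvestrant (4.2 ± 1.4), whose libraries overlapped. Its other 4 groups lay close together, from 8.79 ± 0.8 CPM with raloxifene, 9.69 ± 0.46 in complete vehicle and 9.79 ± 1.6 with tamoxifen to 10.1 ± 0.4 with estradiol. Over the 12 libraries TFF3 and TMPRSS3 had a Pearson r of 0.844, a description of libraries that share treatments. It was taken on the log2 of CPM plus 1, an offset that compresses low values.

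By the same measure of likeness, the genes nearest to ABCG1 among the 14628 with a mean of at least 50 counts were TEX264 (r = 0.921), ENSG00000267426 (0.886) and PDSS2 (0.879). Those nearest to RSPH1 were ENSG00000214559 (0.97), SMIM19 (0.931) and CFAP68 (0.907). TFF3 and TMPRSS3 did not reach that mean, and for them the minimum was lowered to 25 counts after the data had been seen, which left 17420 genes. The chemokine gene CXCL12 (r = 0.961), the growth factor receptor gene IGF1R (0.957) and the adaptor gene CRKL (0.944) then came nearest to TFF3. GNG11 (0.952), SPINK4 (0.944) and GREB1 (0.928) came nearest to TMPRSS3. These are the highest of many correlations over 12 libraries and carry no test.

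To describe the surroundings, all genes starting within 1 Mb of TFF1 on either side were examined. RefSeq lists 67 there, of which 41 were in the counts and 23 passed the filter, 19 of them outside the 7 described here. With estradiol, 2 of these 19 were higher and 1 lower, counts to be read against the 5.04% and 3.74% of all tested genes. TMPRSS2, a protease gene of the same family as TMPRSS3 at -898.0 kb from TFF1, had 29.6 ± 1.6 CPM in starved vehicle and 59.5 ± 0.08 CPM with estradiol (SD, n = 2). It rose by 1.01 ± 0.103 on the log2 scale (adjusted p = 5e-07). WDR4, a subunit of a tRNA methyltransferase 480.8 kb away on the other side, rose by 0.35 ± 0.0835 on the log2 scale (adjusted p = 0.0088), and the long non-coding RNA gene LINC01671 fell by 0.59 on that scale (adjusted p = 0.044). The WDR4 call was lost without starved vehicle library 3 (0.064) or 4 (0.08), without estradiol library 3 (0.24, adjusted p = 0.23) and with DESeq2 (0.052). The LINC01671 call was lost with any 1 of the 4 libraries left out (adjusted p = 0.26, 0.16, 0.3 and 0.13) and with DESeq2 (0.33).

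Starved vehicle was above complete vehicle for 8 of the 19 other window genes and below it for 2, where 9.1% of all tested genes were higher and 9.67% lower. Among them LINC00111 was higher by 1.15 ± 0.151, ZBTB21 by 0.57 ± 0.0942 and C2CD2 by 0.54 ± 0.0906 on the log2 scale (adjusted p = 9.7e-06, 0.00015 and 0.00016), and WDR4 was lower (-0.65 ± 0.0819, adjusted p = 6.3e-06). ZBTB21 overlaps ZNF295-AS1, C2CD2 overlaps SNORA91 and WDR4 overlaps LOC105372817, so their counts are uncertain. TMPRSS2 was higher in starved than in complete vehicle (0.51 ± 0.124, adjusted p = 0.0052), the opposite direction to TMPRSS3, and higher again with estradiol than in complete vehicle (1.52 ± 0.114, adjusted p = 7.6e-09).

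With fulvestrant, TFF3 and TMPRSS3 were the 2 window genes called lower by edgeR's quasi-likelihood test, where 1.05% of all tested genes were lower and 0.107% higher. Of the other 19, 0 passed that test and 0 had an unadjusted p under 0.05 in it, and 0 of 19 is near those shares. DESeq2 called 0 of all 23 window genes, with no adjusted p for 1. TMPRSS2 read 20 ± 1.1 CPM with fulvestrant and 20.7 ± 0.19 in complete vehicle. SLC37A1 and RSPH1-DT, the tested genes just beyond RSPH1, had log2 fold changes of 0.01 ± 0.0606 and 0.12 ± 0.24 with estradiol, and neither passed (adjusted p = 0.96 and 0.87). SLC37A1 overlaps LOC107987299 and LOC101928212, so its counts are uncertain.

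**Figure D4:**
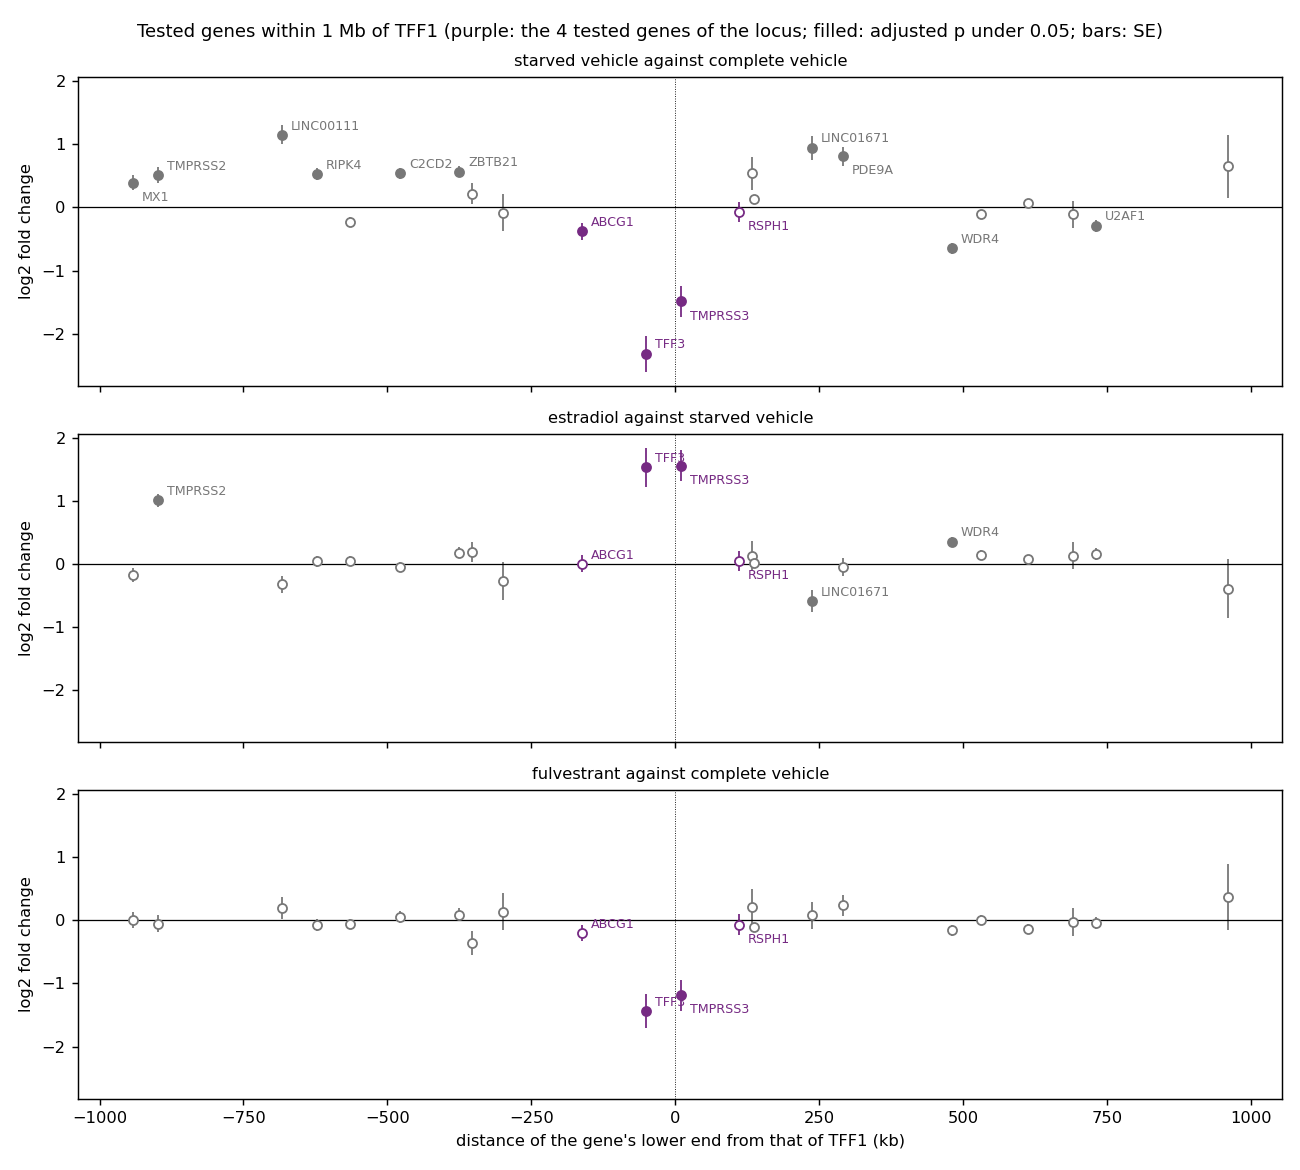
Log2 fold change (vertical axis, bars for the standard error) of the 23 tested genes against the distance of each gene's lower end from that of TFF1 in kb (horizontal axis), for starved against complete vehicle, estradiol against starved vehicle, and fulvestrant against complete vehicle. Filled points passed the threshold and purple marks TFF3, TMPRSS3, ABCG1 and RSPH1; TFF3 and TMPRSS3, beside TFF1, are the lowest points with starvation and fulvestrant and the highest with estradiol.

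Genes that work beside those of the locus were counted from fixed lists. Of 25 mucin and goblet-type secretory genes 13 were tested, and with estradiol 2 rose, 2 fell and 9 did not pass, with a median log2 fold change of -0.12 against -0.01 over all genes. Counts of this and the next lists stand beside shares over all tested genes of 5.04% higher and 3.74% lower with estradiol, 9.1% and 9.67% with starvation, and 0.107% and 1.05% with fulvestrant. No test of a list against other genes was made. AGR3, a disulfide isomerase of secretory cells, rose by 1.23 ± 0.118 on the log2 scale with estradiol (adjusted p = 2e-07), and BCAS1 and FOXA1, the latter a pioneer factor of luminal cells, fell by 0.48 and 0.39 (adjusted p = 2e-06 and 0.00049). With fulvestrant 0 rose and 2 fell, AGR3 (-0.98 ± 0.114, adjusted p = 2e-05) and AGR2, its paralogue (-0.5 ± 0.108, adjusted p = 0.019). AGR3 was also lower in starved than in complete vehicle (-1.47 ± 0.116, adjusted p = 8.8e-09), a comparison in which 2 of the 13 were higher and 3 lower. The member with the smallest adjusted p there was BCAS1, which was higher in starved cells (1.72 ± 0.06, adjusted p = 5.5e-14). The AGR2 call was lost without complete vehicle library 3 (adjusted p = 0.11) or 4 (0.28), without fulvestrant library 3 (0.48) and with DESeq2 (0.24).

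Of 6 genes proposed as receptors of trefoil peptides, 4 were tested and 0 passed with estradiol in edgeR's quasi-likelihood test (1 at an unadjusted p under 0.05, 0 by DESeq2). DESeq2 gave no adjusted p for 1 of the 4. In starved against complete vehicle 2 were higher, the growth factor receptor EGFR (1.03 ± 0.0796, adjusted p = 6e-09) and the chemokine receptor ACKR3 (1.41 ± 0.44, adjusted p = 0.029), and 0 were lower. Of 15 membrane-bound serine proteases with their inhibitors, a list that holds TMPRSS2, 13 were tested. With estradiol TMPRSS2 and the sodium channel subunit SCNN1A, a protease substrate (0.4 ± 0.0925, adjusted p = 0.0072), rose and the inhibitor SPINT1 fell by 0.55 (adjusted p = 3.4e-05), while 10 did not pass. The ACKR3 call was lost with any 1 of its 4 libraries left out (adjusted p = 0.073 to 0.22). That of SCNN1A was lost without starved vehicle library 4 (0.13), without estradiol library 3 (0.095) and with DESeq2 (0.088).

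All 20 radial spoke and cilium genes were tested and 0 passed with estradiol in edgeR's quasi-likelihood test (2 at an unadjusted p under 0.05, 0 by DESeq2), with a median of -0.14 against -0.01 over all genes. DESeq2 gave no adjusted p for 5 of the 20. The cilium transcription factor gene RFX3 (0.36 ± 0.0866, adjusted p = 0.0047) and CFAP206 (0.38 ± 0.13, adjusted p = 0.044) were higher in starved than in complete vehicle. Of 20 sterol efflux and LXR target genes, the company of ABCG1, 18 were tested. With estradiol SOAT1, which esterifies cholesterol (0.56 ± 0.0825, adjusted p = 6.2e-05), and the lipoprotein receptor gene SCARB1 (0.27 ± 0.069, adjusted p = 0.013) rose and 0 fell. In starved against complete vehicle 4 of the 18 were higher and 0 lower, where 9.1% of all tested genes were higher and 9.67% lower. Without starved vehicle library 3 or complete vehicle library 4 the calls of RFX3 (adjusted p = 0.1 and 0.063) and CFAP206 (0.38 and 0.34) were lost. That of CFAP206 was also lost with DESeq2 (0.18). SCARB1 lost its call without starved vehicle library 4 (0.2) or estradiol library 3 (0.31).

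Of 12 genes of the UBASH3 family and its CBL and SYK partners, 11 were tested and 0 passed with estradiol in edgeR's quasi-likelihood test (1 at an unadjusted p under 0.05, 0 by DESeq2). DESeq2 gave no adjusted p for 3 of the 11. Starved vehicle had more FYN (0.69 ± 0.182, adjusted p = 0.0093) and less SYK (-0.34 ± 0.103, adjusted p = 0.026), both tyrosine kinases. The SYK call was lost with any 1 of its 4 libraries left out (adjusted p = 0.091 to 0.18), and the FYN call without starved vehicle library 3 (0.13) or complete vehicle library 3 (0.081) or 4 (0.052). DESeq2 called neither (0.14 and 0.1). With fulvestrant 0 genes of the receptor, protease, cilium, sterol and UBASH3 lists passed edgeR's quasi-likelihood test. At an unadjusted p under 0.05 in that test there were 0, 1, 0, 1 and 0, and by DESeq2 0 in each. DESeq2 gave no adjusted p for 1, 2, 4, 3 and 3 genes of these lists, in that order.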

How the data were processed

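The authors deposited raw counts (whole numbers, not normalized) for Ensembl gene IDs for 12 PRO-seq libraries. The submitters' processing notes name hg38, SAMtools 1.9, Bowtie2 2.4.4 and cutadapt 1.8.1. No source used here gives the counting tool, its annotation, its strand setting or which part of a gene was counted, so promoter-proximal and gene-body polymerase cannot be separated. Of 60605 IDs, 60463 had a symbol. Starvation was read from the sample descriptions and the design text, and no source used here gives the vehicle of the estradiol arm. The descriptions number the libraries of a group 3 and 4, and the titles 1 and 2.

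The analysis used edgeR 4.0.16 in R 4.3.3: filterByExpr, TMM, a quasi-likelihood fit with the 6 groups over all 12 libraries, and Benjamini-Hochberg adjustment over 23375 genes. Standard errors were taken from the log2 fold change and its F statistic. TFF1 and UBASH3A were pooled by group, with exact Poisson intervals and exact conditional intervals of the ratio, at 95%. Libraries of a group were checked for duplicate deposition by chi-square, using genes that reached 20 counts. The pairs differed by 1.2 to 2.36 per degree of freedom. The scripts were tested on simulated data.

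The genes of the locus, the lists and the rule for named genes were chosen with earlier results of these data known. The rule named the 7 genes, up to 4 called window genes and up to 3 called members of each list per comparison, the 3 genes most like each gene whose mean reached 50 counts, and GREB1 and PGR. Alternatives were DESeq2 1.42.0, its size factors, no TMM scaling, no filter, a fit of only the groups compared, the library number as a block, and leaving out each library. Comparisons with complete vehicle share its libraries. Positions and the promoter come from RefSeq (GRCh38.p14).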

Additional observations from a re-analysis of the deposited data

How the results depend on the processing

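Genes called over the whole table varied with the settings, and the cause was not tested. For raloxifene against complete vehicle most calls were lower with all libraries, but most were higher without raloxifene library 3. Leaving out 1 library gave 1155 to 1325 calls for estradiol against starved vehicle (2051 with all libraries), 2555 to 2875 for starved against complete vehicle (4386), and 2229 to 2616 for estradiol-treated starved cells against complete vehicle (3788). Against complete vehicle it gave 143 to 197 for fulvestrant (270), 29 to 204 for raloxifene (133), 0 to 13 for tamoxifen (12) and 77 to 277 for the mean of the drugs (226). Between drugs it gave 14 to 168 for raloxifene against fulvestrant (24), 48 to 86 for tamoxifen against fulvestrant (108) and 0 to 164 for tamoxifen against raloxifene (1). DESeq2 called 1121, 2381 and 2094 genes in the first 3 comparisons and 83 for raloxifene. Without the filter there were 354 for raloxifene, 93 for tamoxifen and 366 for the mean, and between drugs, in the same order, 90, 170 and 65. With only the groups compared, there were 21 for tamoxifen, 66 for tamoxifen against fulvestrant and 0 for tamoxifen against raloxifene.

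The labels tie the library numbers to nothing shared, so they were not treated as pairs. The deviations of same-numbered libraries correlated at 0.05 to 0.36 over the 15 pairs of groups (median 0.12), all positive and not all over 0.1. With the number as a replicate block every comparison had more calls: 3004, 5687 and 5026 in the first 3 comparisons. There 498 genes were called for fulvestrant, 490 for raloxifene, 172 for tamoxifen, 575 for the mean, and 77, 242 and 35 between drugs. Of the genes of the locus, the block moved TFF3 with raloxifene (-0.9, adjusted p = 0.041 in edgeR) and ABCG1 in estradiol-treated starved cells against complete vehicle (-0.38, adjusted p = 0.0097) past the threshold.

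The estradiol and starvation calls of TFF3 and TMPRSS3 held in every alternative tried. Of 1129 alternative values of named genes, 1003 kept their direction and side of the threshold, 90 fell short of it, 14 passed it and 22 changed sign. Those 22 were near 0 and not called. With 1 library left out, ABCG1 ran from -0.13 to 0.12 with estradiol (-0.03 without TMM scaling), from -0.4 to 0.05 with fulvestrant, -0.44 to 0.01 with raloxifene, -0.3 to 0.15 with tamoxifen, -0.38 to 0.07 for their mean and -0.14 to 0.02 for raloxifene against fulvestrant. RSPH1 ran from -0.12 to 0.27 with estradiol, -0.27 to 0.11 with starvation, -0.16 to 0.13 for estradiol against complete vehicle (0.02 without the filter), -0.22 to 0.07 with fulvestrant and -0.06 to 0.16 for tamoxifen against raloxifene. TMPRSS3 with tamoxifen ran from -0.17 to 0.16 (0.0 without TMM scaling), and TFF3 for tamoxifen against raloxifene from -0.07 to 0.62. DESeq2 gave no adjusted p for 13 values of named genes. Depth limits TFF1, TFF2 and UBASH3A.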
